A study of Mus musculus with 18 samples.

Results

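The Fos and Jun families of transcription factor genes were followed across a culture experiment in mouse cells. The 7 genes were chosen by symbol: Fos, Fosb, Fosl1, Fosl2, Jun, Junb and Jund. They are 7 of the 18397 genes in the expression table, and all 7 passed the filter on low counts. The 18 libraries fall into 6 groups of 3. Cells on a soft or a stiff matrix with nothing added are Soft and Stiff, those given what the labels call mito are Soft+mito and Stiff+mito, and those under the condition TW are Soft-TW and Stiff-TW. What mito and TW stand for, the stiffness and the times are not in the labels, which name RAW264.7, a mouse macrophage cell line, for every sample. The labels do not tell whether replicates came from separate cultures, so a p-value here reflects the scatter among 3 libraries, possibly only technical.

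Library totals ran from 16054637 to 16887244 estimated counts. The macrophage label was checked against 19 macrophage and myeloid markers, of which 3 averaged at least 10 TPM (reads divided by transcript length and scaled to the library, so that genes can be compared). These were Cd14 (20.05 to 34.25 TPM over the libraries), Itgb2 (15.61 to 30.72) and Lyz2 (5.07 to 30.84). Cd68 ran from 3.95 to 15.03 TPM and Cd74 from 6.47 to 10.48. The macrophage receptor gene Csf1r ran from 0.03 to 1.1 TPM over the libraries, Adgre1 (F4/80) from 0.0 to 0.14 and Ptprc (CD45) from 0.0 to 0.27. Spi1 reached at most 0.74 TPM, Laptm5 1.69 and Tyrobp 3.61. Of 12 fibroblast and mesenchymal markers 5 averaged at least 10 TPM. These were S100a4 (9208.0 to 13056.56), Vim (1412.94 to 4228.88), Fn1 (118.18 to 374.88), Pdgfra (25.79 to 68.19) and Col1a2 (19.83 to 60.34). Thy1, Lum and Fap reached at most 0.11. Of 12 epithelial markers in the table only the keratins Krt8 (430.91 to 730.46 TPM) and Krt18 (233.29 to 319.27) averaged at least 10 TPM. The other epithelial markers, Epcam and Cdh1 among them, reached at most 0.34. The 8 lymphocyte and endothelial markers in the table reached at most 1.74. Csf1r, Adgre1 and Ptprc were thus near 0 while Cd14, Itgb2 and Lyz2 were not, and the cells are called here by their group only. In bulk RNA, fewer cells of a type and less RNA per cell cannot be told apart.

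AP-1 is a dimer of leucine zipper proteins. Jun proteins pair with each other or with Fos proteins, while Fos proteins need a Jun partner, and the dimers bind a short palindrome, the TPA response element. Fos, Fosb, Jun and Junb are immediate early genes, transcribed within minutes of growth factors, stress or mechanical load, and their mRNAs are short-lived. Fosl1 (Fra-1) and Fosl2 (Fra-2) lack the strong activation domain of Fos and are made later and for longer, and Jund is present in most resting cells. FOS and FOSB proteins are strong activators, and JUNB and JUND are weaker ones than JUN.

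The genes lie on 6 chromosomes in RefSeq's GRCm38.p6 annotation. Fos (gene 14281) is at chromosome 12, 85473890 to 85477274, plus strand. Fosb (gene 14282) is at chromosome 7, 19302696 to 19310118, minus strand. Fosl1 (gene 14283) is at chromosome 19, 5447698 to 5455938, and Fosl2 (gene 14284) at chromosome 5, 32136472 to 32157840, both on the plus strand. Jun (gene 16476) is at chromosome 4, 95049036 to 95052222, minus strand. Junb (gene 16477, 84976909 to 84978748, minus strand) and Jund (gene 16478, 70697739 to 70700616, plus strand) share chromosome 8. In GENCODE M21, no gene overlaps Fos, Fosb or Fosl2. Fosl1 overlaps Ccdc85b, Jun overlaps Junos, Junb overlaps Prdx2 and Jund overlaps Gm11175, each on the opposite strand. The libraries were strand-specific per the labels, but whether the counting used strand is not given, so the counts of these 4 are less certain. The overlaps are of GENCODE extents. The lower end of Junb is 84974484 in GENCODE and 84976909 in RefSeq, and overlap of Prdx2 with the RefSeq extent was not checked.

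The upstream sequences of Fos, Jun and Junb are shown, because these immediate early genes rose in all 4 treated groups and hold matches to motifs known from AP-1 and immediate early promoters. Each is the 250 bases before the RefSeq start (GRCm38.p6), 5′ to 3′ on the gene's strand. Capitals mark matches to the motifs searched.

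Fos, chr12:85473640-85473889, plus strand: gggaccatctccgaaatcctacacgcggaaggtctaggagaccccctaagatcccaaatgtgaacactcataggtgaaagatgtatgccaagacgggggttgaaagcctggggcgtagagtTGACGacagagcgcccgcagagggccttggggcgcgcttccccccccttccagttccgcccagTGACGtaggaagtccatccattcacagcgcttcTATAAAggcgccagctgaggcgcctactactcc

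Jun, chr4:95052223-95052472, minus strand: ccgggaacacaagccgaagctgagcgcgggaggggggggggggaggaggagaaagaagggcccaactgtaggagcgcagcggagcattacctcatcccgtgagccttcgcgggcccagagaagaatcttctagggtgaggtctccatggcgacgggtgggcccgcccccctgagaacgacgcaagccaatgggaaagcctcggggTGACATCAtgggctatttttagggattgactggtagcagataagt

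Junb, chr8:84978749-84978998, minus strand: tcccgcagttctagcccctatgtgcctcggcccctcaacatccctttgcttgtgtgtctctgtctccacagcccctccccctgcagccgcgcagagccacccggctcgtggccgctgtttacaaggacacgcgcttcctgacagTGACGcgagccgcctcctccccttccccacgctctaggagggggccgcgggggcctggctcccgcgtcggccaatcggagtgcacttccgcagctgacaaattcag

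Both strands were searched for 6 motifs. The core of the cAMP response element, TGACG, was chosen after the sequences were seen. It lies in Fos (at 129 to 125 and 66 to 62 bases before the start), Fosb (60 to 56, in a window that starts inside the longest RefSeq extent of the gene and is not printed) and Junb (106 to 102), so in 3 of the 6 members with a window, and in 17.8% of 32851 RefSeq promoter windows of this length. The TGACATCA of Jun, a variant of the TPA response element to which JUN is known to bind together with ATF2, lies 45 to 38 bases before the start and occurs in 2.93% of windows. TATAAA lies 33 to 28 bases before the start of Fos, as in 12.4% of windows. The TPA response element TGANTCA (6.75% of windows), the full cAMP response element TGACGTCA (1.55%), which contains TGACG, and the CArG box of serum response factor (1.47%) had no match in the 6 windows. The serum response element known for Fos lies upstream of the stretch shown. The windows of Fosl2 and Jund held no match to any of the 6 motifs. RefSeq starts Jund at 70697739 and GENCODE at 70698949, so the Jund window depends on the annotation. Fosl1 has no entry in the promoter table.

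Levels are given first, in TPM for each library. Fos, the founding member, stood at 2.37, 3.77 and 2.48 TPM in Soft and at 16.2, 15.0 and 16.4 in Stiff. In Soft-TW it was 19.3, 18.8 and 19.5, and in Stiff-TW 95.8, 100.7 and 98.8. In Soft+mito it reached 133, 127 and 124 TPM and in Stiff+mito 241, 246.5 and 241. No 2 groups next to each other in this order overlapped, and the highest group mean was 84.5 times the lowest. Soft replicate 2 was the highest Soft library, with 70 counts against 43 and 46.

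Fosb, the closest relative of Fos, kept the same order of groups. It stood at 5.00, 4.27 and 4.44 TPM in Soft, 5.54, 5.44 and 6.74 in Stiff and 8.85, 8.05 and 8.26 in Soft-TW. It was 54.8, 54.2 and 53.3 TPM in Stiff-TW, 87.8, 85.7 and 75.0 in Soft+mito and 163, 157 and 153 in Stiff+mito. No neighbouring groups overlapped, and the range between group means was 34.5 times. In TPM, Fos and Fosb were thus both near the bottom of their range in 3 groups, Soft, Stiff and Soft-TW. These 3 still differed for Fos, with means of 2.87 TPM in Soft, 15.9 in Stiff and 19.2 in Soft-TW.

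Fosl1 had the highest level of the 7 genes in Soft, with 167, 161 and 165 TPM, and Soft-TW overlapped it at 167, 158 and 164. Soft+mito was above both, at 193, 185 and 183 TPM. The stiff groups were all below the soft ones: 107, 107 and 106 in Stiff, 110, 111 and 119 in Stiff+mito and 136, 135 and 132 in Stiff-TW. Fosl2 followed TW, with 62.0, 63.8 and 62.6 TPM in Soft-TW and 66.5, 65.3 and 63.0 in Stiff-TW, which overlapped. Its other groups ran from 37.9 TPM in Soft+mito to 48.7 in Soft. The group means spanned 1.75 times for Fosl1 and 1.63 times for Fosl2.

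Among the partners, Jun stood at 43.1, 45.7 and 44.6 TPM in Soft and 41.9, 41.2 and 42.5 in Stiff. It was 65.2, 64.9 and 66.5 in Soft-TW, 92.8, 94.3 and 89.7 in Soft+mito, 107, 111 and 111 in Stiff-TW, and 143, 146 and 152 in Stiff+mito. The untreated groups were lowest on both matrices, and Stiff+mito was highest with no overlap. Junb stood at 81.9, 83.2 and 87.9 TPM in Soft and 73.7, 69.8 and 72.3 in Stiff. The 4 treated groups of Junb all lay between 155 and 197 TPM, and its highest 2, Stiff-TW and Stiff+mito, overlapped. Jund, the most even Jun gene, had group means from 54.3 ± 1.20 (SD, n = 3) TPM in Stiff to 86.1 ± 1.60 in Stiff+mito, and its highest 2 groups, both with mito, overlapped. The order of groups was the same on log2 CPM (counts scaled to the library by TMM, the trimmed mean of M-values) for Fos, Fosb, Junb and Jund, but not for Fosl1, Fosl2 and Jun.

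Separation of the libraries was read against the share of all tested genes whose groups did not overlap in CPM. On the same CPM scale, the groups of all 7 members were apart in Soft+mito against Soft (37.6% of all tested genes), Stiff+mito against Stiff (43.7%), Soft-TW against Soft (60.5%), Stiff-TW against Stiff (72.2%), Stiff-TW against Soft-TW (59.9%) and Soft+mito against Soft-TW (63.3%). In Stiff against Soft 5 of 7 were apart (58.2%), with Fosl2 and Jun overlapping. For 6 of 7 they were apart in Stiff+mito against Soft+mito (65.4%), where Jund overlapped, and in Stiff+mito against Stiff-TW (65.1%), where Junb did. Most of these shares of all genes are high, so separation alone says little about the members.

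**Figure D1:**
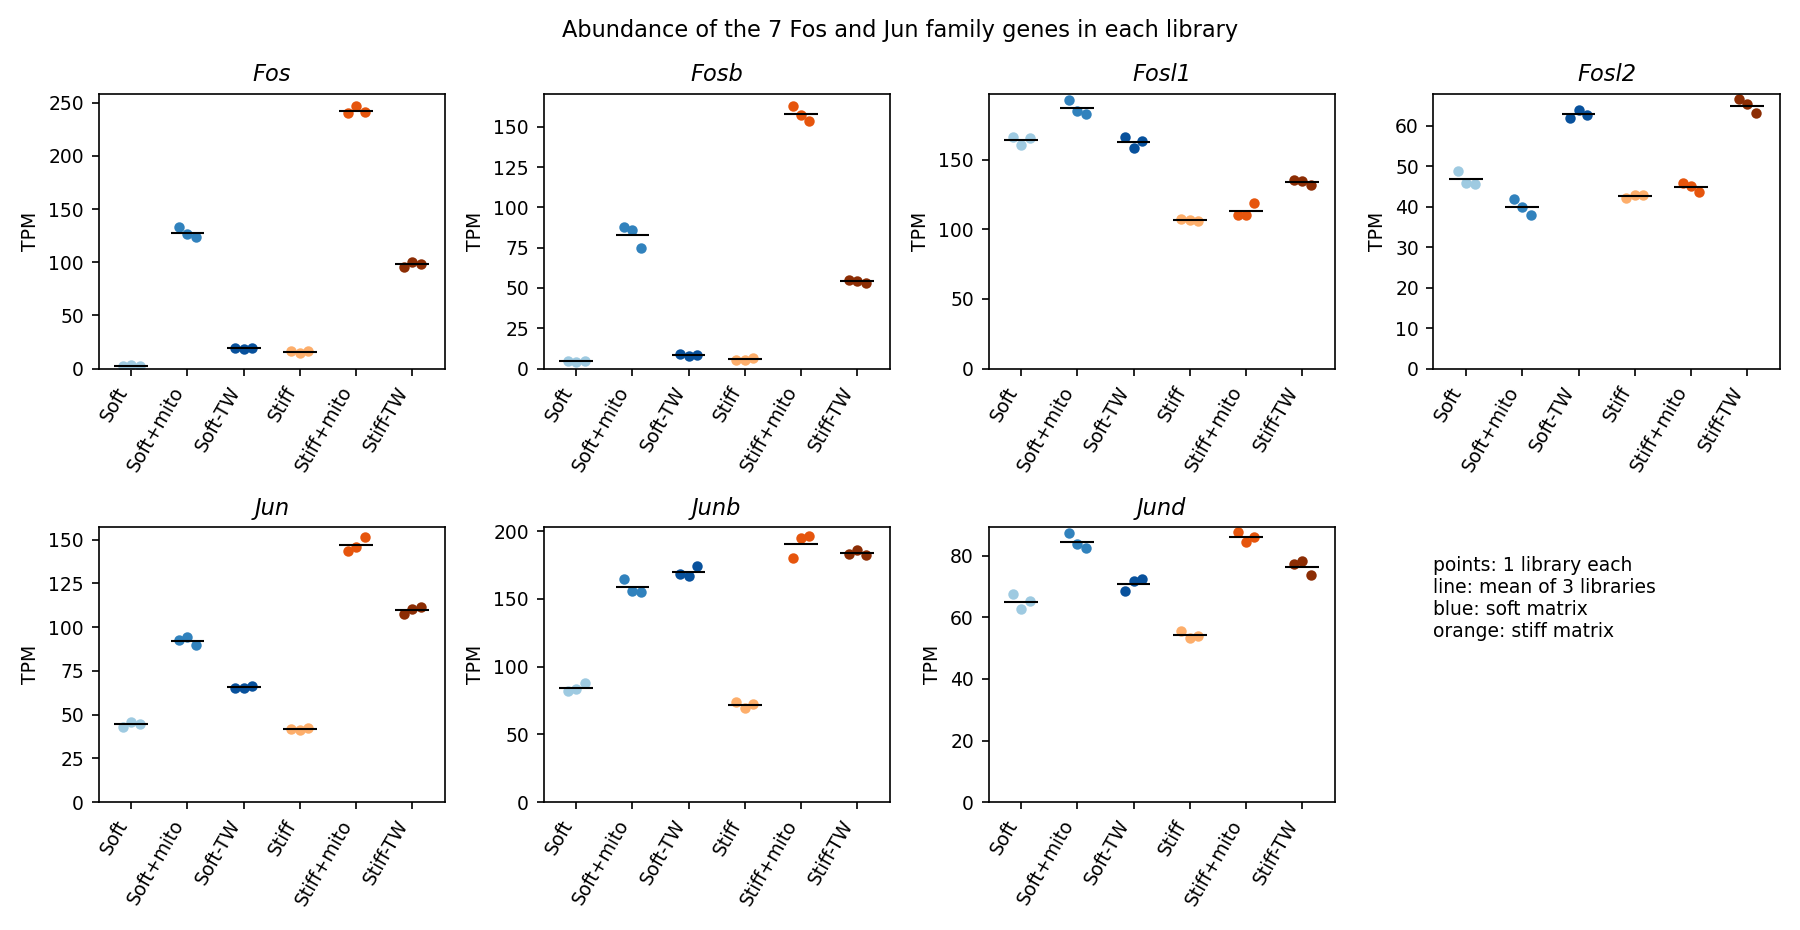
Abundance in TPM (y axis, from 0) of each of the 7 genes in the 6 groups (x axis). Points are single libraries and lines are means of 3. Fos and Fosb ranged over 84.5 and 34.5 times between group means, while Fosl1 and Fosl2 ranged under 2 times.

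The makeup of the family changed with the groups. The summed level of the 7 genes was 412 ± 5.35 TPM in Soft, 339 ± 4.34 in Stiff, 560 ± 7.10 in Soft-TW, 722 ± 7.67 in Stiff-TW, 773 ± 26.8 in Soft+mito and 982 ± 10.6 in Stiff+mito (SD, n = 3). Fos and Fosb together made up 3.41% ± 0.298 of the Fos family TPM in Soft and 12.7% ± 0.711 in Stiff. That share was 10.9% ± 0.105 in Soft-TW and 43.4% ± 0.605 in Stiff-TW. With mito it was 48.2% ± 0.669 on the soft matrix and 71.7% ± 0.750 on the stiff one. Fosl1 alone went from 39.8% ± 0.275 of all 7 genes in Soft to 11.5% ± 0.406 in Stiff+mito. Junb held between 19.4% ± 0.734 (Stiff+mito) and 30.3% ± 0.318 (Soft-TW).

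**Figure D2:**
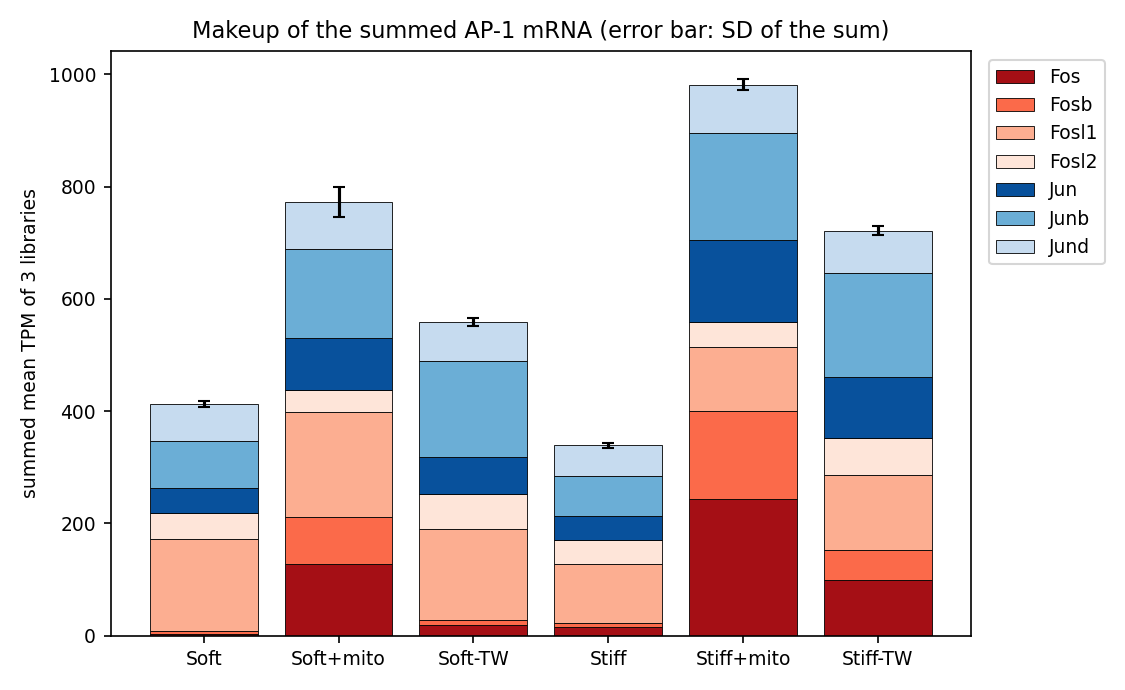
Stacked mean TPM of 3 libraries (y axis) of the 4 Fos family genes (reds) and 3 Jun family genes (blues) in each group (x axis). Error bars are the SD of the sum. The total runs from 339 TPM in Stiff to 982 in Stiff+mito, and Fos and Fosb take most of the added height with mito.

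The first comparison asked what mito did on the soft matrix. Values after ± on log2 fold changes are approximate standard errors, and adjusted p-values are from edgeR's quasi-likelihood test with Benjamini-Hochberg adjustment over 12245 genes. A gene was called at an adjusted p under 0.05. In Soft+mito against Soft, 6 of 7 genes rose, where 14.8% of all tested genes did, and Fosl2 fell, where 11.9% did. Of the called genes in all, 55.5% were higher, or 38.3% with library totals as the scale. At least 2-fold changes were seen in 4 members and in 0.58% of all tested genes. The median of the 7 was 1.00, against 0.0073 over all tested genes. Fos rose by 5.56 ± 0.064 (adjusted p = 6.85e-95) and Fosb by 4.30 ± 0.054 (adjusted p = 2.56e-56). Jun rose by 1.15 ± 0.031 and Junb by 1.00 ± 0.034, while Jund rose by 0.47 ± 0.031 and Fosl1 by 0.28 ± 0.028. Fosl2 had -0.13 ± 0.028 (adjusted p = 0.000159).

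On the stiff matrix, all 7 genes rose in Stiff+mito against Stiff, where 15.6% of all tested genes did. At least 2-fold changes were seen in 4 members and in 0.514% of all tested genes, and the median of the 7 was 1.41 against 0.00058. Fosb rose most, by 4.74 ± 0.047 (adjusted p = 2.13e-62), then Fos by 3.94 ± 0.041 (adjusted p = 1.48e-99). Jun rose by 1.81 ± 0.030, Junb by 1.41 ± 0.034 and Jund by 0.67 ± 0.032. The values of Fosl1 (0.095 ± 0.033, adjusted p = 0.0191) and Fosl2 (0.081 ± 0.028, adjusted p = 0.0167) were small. Fosl1 lost its call with DESeq2 (adjusted p = 0.0565), without Stiff replicate 3 (0.089, adjusted p = 0.0639) and without Stiff+mito replicate 3 (0.054, adjusted p = 0.277). Fosl2 lost it with DESeq2 (adjusted p = 0.0536) and without any 1 of Stiff replicates 1 and 3 and Stiff+mito replicates 1 and 2 (0.069 to 0.076, adjusted p from 0.0529 to 0.0851).

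The TW condition was compared with the untreated cells of the same matrix. In Soft-TW against Soft all 7 genes passed, as 56.9% of all tested genes did, and all rose, where 28.9% of all tested genes did. Of the called genes in all, 50.8% were higher, or 38.6% with library totals as the scale. Fos rose by 2.84 ± 0.10, Junb by 1.12 ± 0.033 and Fosb by 1.00 ± 0.088. These 3 changed at least 2-fold, as 2.91% of all tested genes did. Jun rose by 0.67 ± 0.033, Fosl2 by 0.56 ± 0.026 and Jund by 0.23 ± 0.032, and the median of the 7 was 0.67 against -0.0037. Fosl1 had 0.095 ± 0.029 (adjusted p = 0.00341), but its mean TPM changed by -1.36 ± 3.00 (SE) and the call was lost with library totals as the scale (0.040, adjusted p = 0.24).

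In Stiff-TW against Stiff all 7 passed as well, as 69.6% of all tested genes did, and all rose, where 35.5% rose and 34.1% fell, and 4 changed at least 2-fold, as 6.14% of all tested genes did. The median of the 7 was 1.41 against 0.0091. Fosb rose by 3.24 ± 0.055, Fos by 2.68 ± 0.047, Jun by 1.43 ± 0.031 and Junb by 1.41 ± 0.034. Fosl2 rose by 0.68 ± 0.026, Jund by 0.54 ± 0.032 and Fosl1 by 0.39 ± 0.032. Markers of cell types were counted as well, to be read against the shares over all tested genes. Of these 28.9% rose and 28% fell in Soft-TW, and 35.5% and 34.1% in Stiff-TW. With mito 14.8% rose and 11.9% fell on soft, and 15.6% and 17.8% on stiff. In Stiff against Soft 29.1% of all tested genes rose and 24.7% fell. Of 11 macrophage markers tested, 9 rose and 1 fell in Soft-TW, 8 and 1 in Stiff-TW, 7 and 1 in Soft+mito and 6 and 0 in Stiff+mito, each against the untreated cells (medians 2.01, 1.60, 0.42 and 0.42). In Stiff against Soft 2 rose and 3 fell. The filter on low counts keeps a gene that is high enough in 1 group alone. Markers low elsewhere could thus be tested through their TW libraries, which can tilt the TW counts and medians upward. Tyrobp, for one, averaged 0.0 TPM in Soft and 3.00 in Soft-TW. Of 8 mesenchymal markers tested, 4 rose and 1 fell in Soft-TW, 6 and 1 in Stiff-TW, 2 and 3 in Soft+mito, 6 and 0 in Stiff+mito, and 5 and 3 in Stiff against Soft. The 2 tested epithelial markers, Krt8 and Krt18, fell in Stiff against Soft and in Soft-TW, rose with mito on both matrices and did not pass in Stiff-TW. The sum of all 19 macrophage markers was 114 to 119.95 TPM in Soft-TW against 72.5 to 74.1 in Soft, and 83.9 to 84.5 in Stiff-TW against 69.3 to 73.9 in Stiff. With mito it was 80.3 to 84.8 TPM on soft and 79.3 to 85.3 on stiff. None of the 19 was at 0 in every library. The part of these markers in the AP-1 changes was not tested.

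The matrix alone split the family. In Stiff against Soft 5 of 7 genes passed, as 53.8% of all tested genes did. Fos rose by 2.54 ± 0.10 and Fosb by 0.48 ± 0.096, where 29.1% of all tested genes rose. Fosl1 fell (-0.55 ± 0.031), and so did Jund (-0.18 ± 0.033) and Junb (-0.15 ± 0.039), where 24.7% of all tested genes fell. Of the called genes in all, 54.1% were higher, or 44.1% with library totals as the scale. Jun had -0.0006 ± 0.036 (adjusted p = 0.991) on the scale of the fit, although its TPM in the 2 groups, unlike its CPM, did not overlap. Fosl2 had -0.048 ± 0.028 (adjusted p = 0.14), and passed with library totals (-0.088, adjusted p = 0.0054) and with a fit of these 2 groups alone (-0.063, adjusted p = 0.0443). Only Fos changed at least 2-fold among the 7, as 2.61% of all tested genes did.

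With mito or TW present, Jun passed the test between matrices too. In Stiff+mito against Soft+mito 6 of 7 passed, as 63.5% of all tested genes did, and none changed at least 2-fold, as 4.46% of all did. Fosb rose by 0.92 ± 0.029, Fos by 0.92 ± 0.027, Jun by 0.67 ± 0.026, Junb by 0.26 ± 0.029 and Fosl2 by 0.16 ± 0.028, where 32.7% of all rose, while Fosl1 fell (-0.73 ± 0.030), where 30.8% fell. Jund had 0.018 ± 0.029 (adjusted p = 0.605). In Stiff-TW against Soft-TW all 7 passed, as 54.3% of all tested genes did. Fosb rose by 2.72 ± 0.051 and Fos by 2.38 ± 0.045, the 2 that changed at least 2-fold, as 1.71% of all did. Jun rose by 0.76 ± 0.029, Junb by 0.14 ± 0.029 and Jund by 0.13 ± 0.031, and Fosl1 fell (-0.26 ± 0.030). Over all tested genes 27.6% rose and 26.7% fell. Fosl2 had 0.079 ± 0.025 (adjusted p = 0.00482), and lost its call with DESeq2 (adjusted p = 0.0513), with library totals (0.047, adjusted p = 0.106) and without Stiff-TW replicate 1 (0.054, adjusted p = 0.0978). Fosl1 was lower on the stiff matrix in each of the 3 comparisons of matrices.

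**Figure D3:**
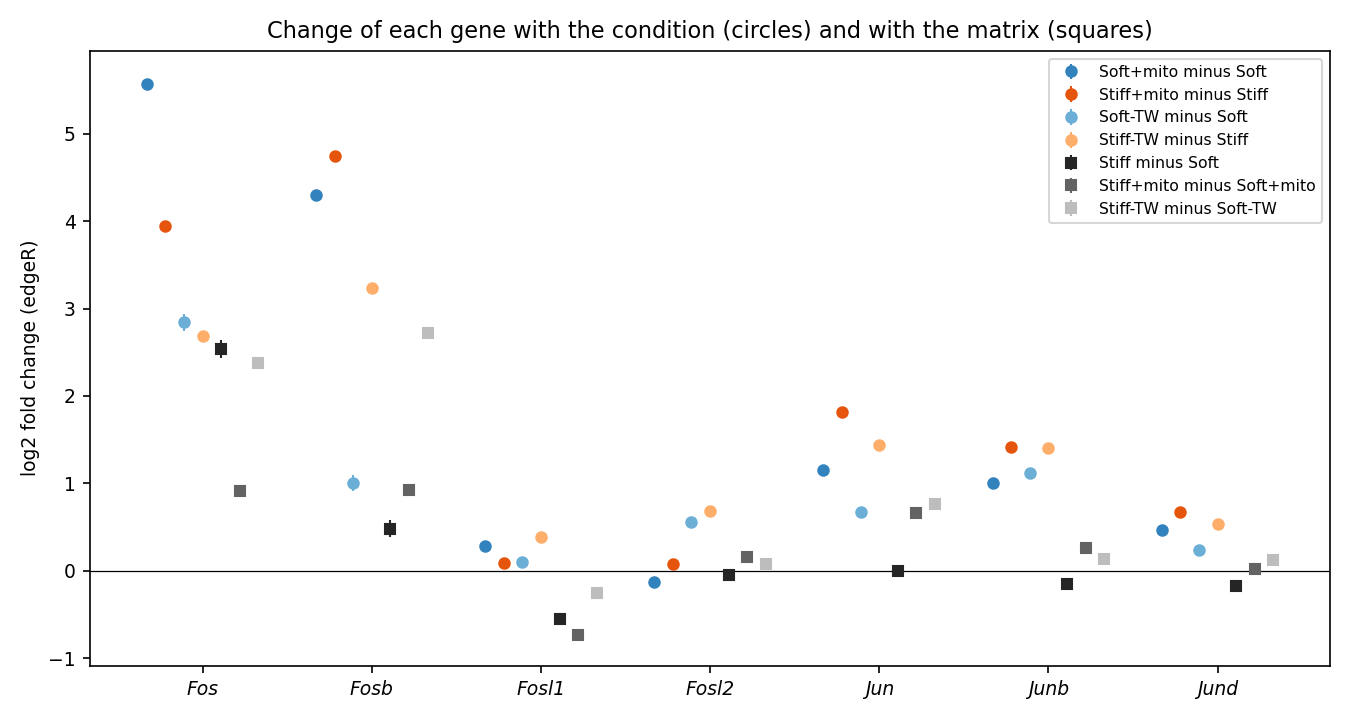
Log2 fold change from edgeR (y axis) of each gene (x axis) for the condition on each matrix (circles) and for the matrix within each condition (squares). Error bars are approximate standard errors, mostly smaller than the symbols. Fos and Fosb lie highest with mito, up to 5.56 and 4.74, and Fosl1 lies below 0 in the 3 comparisons of matrices.

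Whether the response differed between matrices was tested as an interaction, the log2 change on stiff minus that on soft. For mito all 7 passed, as 23.6% of all tested genes did. The value was positive in 5 members (10.4% of all tested genes) and negative in 2 (13.1%). Fosl2, among the 5, fell on soft (-0.13) and had a small rise on stiff (0.081). An interaction of at least 2-fold was seen in Fos, and in 0.498% of all tested genes. Fos had -1.62 ± 0.114 (adjusted p = 4.72e-23), a smaller fold on the stiff matrix, while Jun had 0.67 ± 0.045, Fosb 0.44 ± 0.102 and Junb 0.41 ± 0.049. In TPM, however, mito added more Fos on stiff, 227 ± 1.96 against 125 ± 2.74 on soft (SE). The sign of this difference for Fos therefore depended on the scale, since Fos started from 15.9 TPM in Stiff and 2.87 in Soft. For Fosb the added level was 152 ± 2.76 against 78.3 ± 3.99 TPM and for Jun 105 ± 2.50 against 47.8 ± 1.55, the same sign as on the log2 scale. Fosl1 (-0.19 ± 0.044), Fosl2 (0.21 ± 0.039) and Jund (0.20 ± 0.044) had smaller interactions. Of the called genes in all, 44.3% had a higher value on stiff, or 58.1% with library totals as the scale.

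For TW, 6 of 7 genes passed, all with larger rises on stiff. Of all tested genes 36.1% passed, 16.4% with a positive value and 19.7% with a negative one. An interaction of at least 2-fold was seen in Fosb, and in 1.52% of all tested genes. Fosb led with 2.24 ± 0.117 (adjusted p = 3.31e-24), since TW added 48.2 ± 0.607 TPM on stiff and 3.82 ± 0.326 on soft. Jun had 0.76 ± 0.046, with 68.0 ± 1.28 TPM added against 21.1 ± 0.899. Jund (0.30 ± 0.045), Fosl1 (0.29 ± 0.044), Junb (0.29 ± 0.049) and Fosl2 (0.13 ± 0.037) followed. Fos did not pass (-0.16 ± 0.130, adjusted p = 0.361), although TW added 82.6 ± 1.5 TPM on stiff and 16.3 ± 0.502 on soft. Without Soft replicate 2, the Soft library with most Fos, its interaction was -0.42 (adjusted p = 0.0312).

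Mito and TW were also compared directly. In Soft+mito against Soft-TW all 7 passed, as 59.9% of all tested genes did (29.8% higher and 30% lower). Fosb (3.29 ± 0.047) and Fos (2.72 ± 0.043) were higher with mito by at least 2-fold, as 3.5% of all tested genes differed, and Jun was higher by 0.48 ± 0.029, Jund by 0.24 ± 0.030 and Fosl1 by 0.18 ± 0.028. Fosl2 (-0.68 ± 0.027) and Junb (-0.11 ± 0.030) were higher with TW. In Stiff+mito against Stiff-TW 6 of 7 passed, as 62% of all tested genes did (30.2% higher and 31.8% lower). Fosb (1.5 ± 0.031) and Fos (1.26 ± 0.029), at least 2-fold where 3.76% of all were, Jun (0.38 ± 0.026) and Jund (0.13 ± 0.030) were higher with mito. Fosl2 (-0.60 ± 0.026) and Fosl1 (-0.29 ± 0.032) were higher with TW. Junb had 0.0058 ± 0.029 (adjusted p = 0.877), and its libraries overlapped.

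Fosb is known to yield full-length FosB and, by splicing, a truncated form without the C-terminal activation domain. The authors' table of transcripts splits Fosb between 2 curated RefSeq transcripts, and which protein the second encodes was not read from the files. The second took 55.5%, 48.0% and 54.6% of Fosb counts in Soft (94.9, 72.0 and 84.7 counts). It took 9.10%, 17.0% and 28.9% in Stiff (18.2, 33.4 and 69.7 counts), a wide spread at low counts. In Soft-TW it took 33.1%, 20.1% and 25.5%, and in Stiff-TW 10.3%, 12.0% and 7.63%. In Soft+mito it took 12.2%, 15.8% and 13.4% (401, 511 and 390 counts) and in Stiff+mito 16.6%, 15.7% and 16.3% (973, 898 and 925 counts). The share in Soft lay above every library of the other 5 groups, while the counts of both transcripts were higher in Soft+mito than in Soft. The split of shared reads is an estimate, and 3 libraries against 3 cannot reach an exact two-sided permutation p below 0.1, so the shares were not tested.

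**Figure D4:**
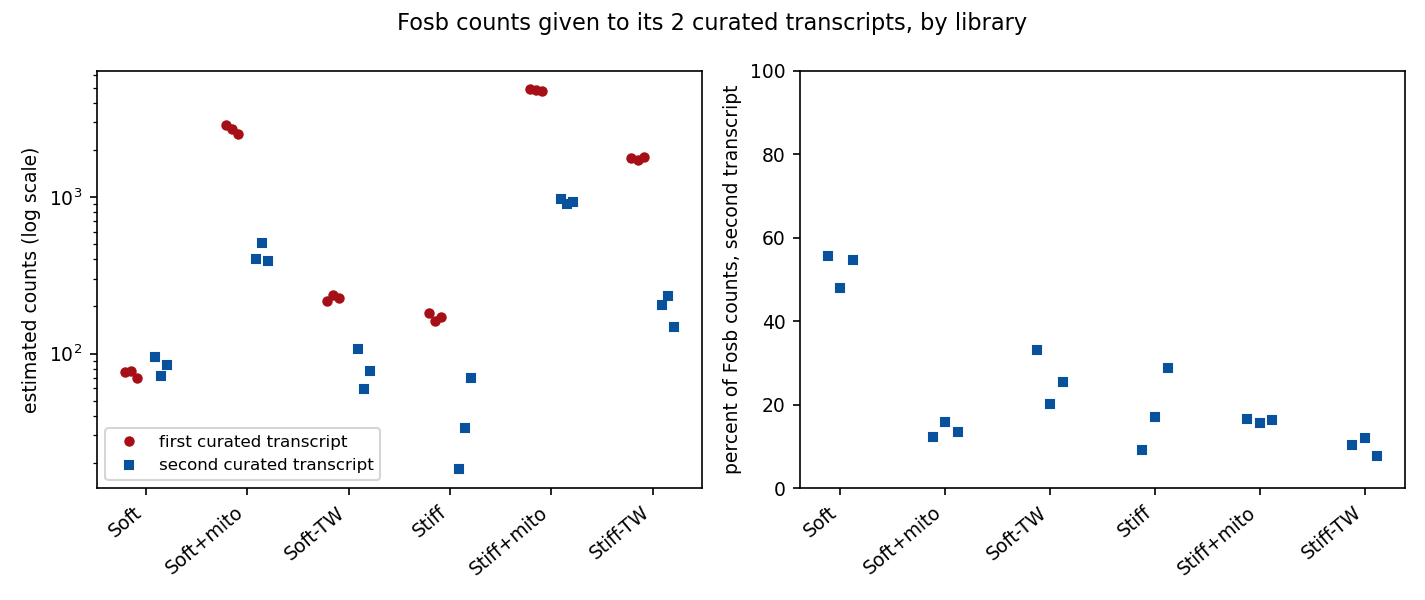
Estimated counts of the 2 curated Fosb transcripts (left, log y axis) and the percent given to the second (right, y axis from 0 to 100) for each library, by group (x axis). The percent is 48.0 to 55.5 in the Soft libraries and 7.63 to 33.1 in all others.

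Other genes around AP-1 were taken from lists, described by counts and medians. Over all tested genes, 14.8% rose and 11.9% fell in Soft+mito, 15.6% and 17.8% in Stiff+mito, 28.9% and 28% in Soft-TW, and 35.5% and 34.1% in Stiff-TW. A list of 10 genes held ATF, CREB and related leucine zipper proteins, several of which form dimers with Jun or Fos proteins. Of these genes 2 rose and 3 fell in Soft+mito (median -0.05) and 2 and 2 in Stiff+mito (-0.06). The medians over all tested genes were 0.0073 and 0.00058. Atf3, an immediate early partner of Jun proteins, rose by 0.75 ± 0.085 and 0.75 ± 0.080 with mito on soft and stiff, rose by 0.45 ± 0.089 in Soft-TW and fell in Stiff-TW (-0.47 ± 0.096). Jdp2, a repressor that dimerizes with Jun proteins, fell with TW (-0.77 ± 0.060 on soft, -0.63 ± 0.054 on stiff). Creb5 rose with TW by 1.04 ± 0.057 and 0.78 ± 0.052. Crem fell in Stiff-TW (-0.52 ± 0.105). Of 7 Maf genes 5 were tested. The small Maf gene Maff rose in all 4 treated groups, most in Stiff-TW (1.57 ± 0.040), and fell on stiff alone (-0.56 ± 0.045). Maf rose most in Stiff-TW (0.87 ± 0.076), Mafk fell on stiff alone (-0.38 ± 0.042), and Mafg fell in Soft+mito (-0.23 ± 0.027).

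Serum response factor, its ternary complex partners, the myocardin-related coactivators and Mef2 factors act on the promoters of Fos and Jun. Of 9 genes for these factors, 3 rose and 1 fell in Soft+mito (14.8% and 11.9% of all tested genes). In Stiff+mito 3 rose and 0 fell (15.6% and 17.8%). Srf itself rose with mito, by 0.29 ± 0.047 on soft and 0.37 ± 0.049 on stiff. Elk4 fell on stiff alone (-0.65 ± 0.076), and Elk3 (0.61 ± 0.029) and Mef2c (0.54 ± 0.084) rose in Stiff-TW. MAP kinase cascades phosphorylate these factors and JUN. Among 22 tested genes of these cascades, 4 rose and 4 fell in Soft+mito (14.8% and 11.9% of all tested genes, median of the list -0.04). In Stiff+mito 4 rose and 5 fell (15.6% and 17.8%, median of the list -0.01). With TW 12 rose and 6 fell on soft (28.9% and 28% of all tested genes) and 10 and 9 on stiff (35.5% and 34.1%). Map2k6, a p38 activator, rose in both TW groups (1.65 ± 0.090 and 1.66 ± 0.088), as did Map3k1 upstream of JNK (1.03 ± 0.069 and 0.95 ± 0.072). Map2k3 (-0.65 ± 0.028) fell and Rps6ka2 (0.79 ± 0.046) rose on stiff alone.

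Of 12 genes for turnover of AP-1 mRNAs and proteins, 4 rose and 1 fell in Soft+mito (14.8% and 11.9% of all tested genes) and 5 and 4 in Stiff+mito (15.6% and 17.8%). Zfp36, whose protein binds AU-rich elements and speeds mRNA decay, rose with mito by 1.04 ± 0.062 and 1.84 ± 0.065 and with TW by 0.71 ± 0.065 and 1.53 ± 0.068 (soft, then stiff). Trib1, an adaptor of the COP1 ubiquitin ligase, rose by 1.51 ± 0.043 and 2.03 ± 0.047 with mito. Zfp36l1 rose most in Stiff-TW (1.15 ± 0.037), as did Trib2 (0.95 ± 0.067). Of 36 textbook AP-1 target genes 30 were tested. With mito 15 rose and 4 fell on soft (median 0.11) and 13 and 5 on stiff (0.10). With TW 15 rose and 8 fell on soft (0.18), where 56.9% of all tested genes were called, and 20 and 8 on stiff (0.47), where 69.6% were. Among the targets named here, the largest changes were with TW. The gelatinase gene Mmp9 rose by 2.46 ± 0.093 on soft and 2.54 ± 0.076 on stiff. The EGF receptor ligand gene Areg rose by 2.32 ± 0.048 and 1.08 ± 0.045, and Sprr1a of the cornified envelope by 0.66 ± 0.058 and 2.68 ± 0.082. Sprr1a was lower in Stiff (mean 17.1 TPM) than in Soft (76.0), and reached 102 in Stiff-TW and 112 in Soft-TW. With mito on stiff, Areg had 0.02 ± 0.051 (adjusted p = 0.841).

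Among 27 tested other immediate early genes, 22 rose with mito on soft and 21 on stiff, and 0 fell in either. The growth-factor-responsive Egr1 rose by 2.33 ± 0.051 and 2.77 ± 0.044, and Klf2 by 2.53 ± 0.138 and 3.49 ± 0.122. Dusp1, a phosphatase of MAP kinases, rose by 2.09 ± 0.033 and 2.42 ± 0.031, and the matricellular gene Ccn1 by 2.19 ± 0.029 and 2.12 ± 0.025. With TW 17 rose and 4 fell on soft, and 19 and 4 on stiff. The shares over all tested genes were 14.8% and 15.6% higher with mito, and 28.9% and 35.5% higher with TW, on soft and stiff.

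Likeness between genes was measured by Pearson's r of log2 CPM over the 18 libraries, which share 6 groups, as a description. Fos and Fosb had r = 0.95, Fosb and Jun 0.95, and Jun with Junb and Jund 0.90 and 0.92. Fosl1 had r from -0.10 to 0.35 with the other members and Fosl2 from -0.01 to 0.51. Among 9888 other genes the most like Fos were Ccn1 (0.98), Egr1 (0.96) and Ier2 (0.92), and the most like Fosb were the phosphatase genes Dusp6 and Dusp1 (0.98 each) and Ccn1 (0.97). For Jun they were Egr1 (0.98), Rhob and Klf2 (0.96 each). For Junb they were Phlda1 (0.98), Socs3 (0.97) and Zfp36 (0.95), and for Jund Zfp36, Sgk1 (0.98 each) and Trib1 (0.97). Fosl1 was nearest to Atp5a1, Wwc1 and Cbfb (0.98 each), and Fosl2 to Khnyn, Dhx34 and Arhgef3 (0.99 each), none of them an immediate early gene of the list used here.

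Of the overlapping genes, Ccdc85b and Prdx2 were in the table. Prdx2, opposite Junb, ran from 254 to 354 TPM. It fell in Stiff against Soft (-0.32 ± 0.026, against -0.15 for Junb) and rose in Stiff-TW (0.41 ± 0.026, against 1.41), Soft-TW (0.11 ± 0.025, against 1.12), Soft+mito (0.14 ± 0.025, against 1.00) and Stiff+mito (0.094 ± 0.027, against 1.41). Both genes thus had the same sign in these 5 comparisons, and in Stiff against Soft the fall of Prdx2 was the larger. Ccdc85b, opposite Fosl1, ran from 23.4 to 42.3 TPM. It fell in Stiff against Soft (-0.29 ± 0.039, against -0.55 for Fosl1) and rose in Stiff-TW (0.74 ± 0.037, against 0.39), Soft-TW (0.26 ± 0.036, against 0.095), Soft+mito (0.16 ± 0.037, against 0.28) and Stiff+mito (0.52 ± 0.038, against 0.095). Its interaction of TW and matrix was 0.48 ± 0.052, against 0.29 for Fosl1. The signs were again shared here, with larger values for Ccdc85b in Stiff-TW, Soft-TW and Stiff+mito. In other comparisons some signs differed. In Stiff+mito against Soft+mito Prdx2 fell (-0.37 ± 0.026) and Junb rose (0.26). In Stiff-TW against Soft-TW Ccdc85b rose (0.19 ± 0.035) and Fosl1 fell (-0.26). The interaction of mito and matrix was 0.35 ± 0.053 for Ccdc85b and -0.19 for Fosl1. Some others were shared, as in Stiff+mito against Stiff-TW for Ccdc85b (-0.23 ± 0.035) and Fosl1 (-0.29). The part of the overlapping genes in the values of Junb and Fosl1 was not tested.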

How the data were processed

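Per the labels' protocols, RNA was extracted with TRIzol, poly(A)-selected, made into strand-specific libraries and sequenced as paired ends. The submitters' processing notes name the build mm10. For the aligner, quantifier and annotation nothing is stated in the sources used here. The authors deposited estimated counts and TPM values for 18397 genes and for RefSeq transcripts, and 10.9% of the gene counts were not whole (tolerance 0.001). Another 80 columns of the gene file were not used.

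Counts were rounded, filtered by filterByExpr (12245 genes), scaled by TMM (0.968 to 1.03) and fitted in 1 quasi-likelihood model over the 18 libraries with edgeR 4.0.16 in R 4.3.3, for 11 comparisons. DESeq2 1.42.0 was an alternative. Standard errors were derived from the fold change and its F statistic and are approximate. Replicates were close (common coefficient of variation 0.0175; chi-square over degrees of freedom 1.19 to 2.16), so small changes pass. The script was tested on simulated data, with changes put into Stiff+mito. It called 78% of 1.25-fold changes and 100% of 2-fold ones, and 7.46% of its calls were false. The changed genes, 50 for each fold, all had at least 50 expected counts per library. The rates of detection therefore do not cover genes with fewer counts.

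The members, lists and tests were chosen with earlier results of these data known. From each list, up to 4 genes were named: those with the largest called change in the 5 comparisons with an untreated group and at least 5 CPM (log2 CPM used a prior count of 2). A gene that this rule names is not reported here. The 3 nearest genes of each member had at least 5 CPM. A list's members that were too low to test are not in its counts. Promoters and positions are RefSeq's (GRCm38.p6).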

Additional observations from a re-analysis of the deposited data

Results flagged for a closer look

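The response of the members differed between the matrices by a test of the difference itself, the interaction term of the edgeR fit (log2 change on the stiff matrix minus that on the soft one). For mito the values were -1.62 for Fos, 0.44 for Fosb, -0.19 for Fosl1, 0.21 for Fosl2, 0.67 for Jun, 0.41 for Junb and 0.20 for Jund. For TW they were 2.24 for Fosb, 0.29 for Fosl1, 0.13 for Fosl2, 0.76 for Jun, 0.29 for Junb and 0.30 for Jund. The value of Fos for mito is opposite in sign to the difference of the TPM added, which was 102 TPM larger on the stiff matrix. For Fosl1 the TPM changes with TW were 27.5 on stiff and -1.36 on soft.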

How the results depend on the processing

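The 77 fold changes of the members were recomputed under 12 alternatives for each comparison of 2 groups and 18 for each interaction, 6 of them other fits and the rest leaving out 1 library, giving 1008 values. Of these 987 kept their sign and their side of the threshold, 12 lost the call, 3 gained it and 6 changed sign. The sign changes were all in values that did not pass: Jun in Stiff against Soft (-0.0006) was 0.029, 0.0073 and 0.0075 without Soft replicate 2, Soft replicate 3 and Stiff replicate 2, over a range of -0.032 to 0.029. Junb in Stiff+mito against Stiff-TW (0.0058) was -0.013 without Stiff+mito replicate 2 or 3, over a range of -0.013 to 0.054. Jund in Stiff+mito against Soft+mito (0.018) was -0.00067 without Stiff+mito replicate 3, over a range of -0.00067 to 0.031. The cause was not tested. The number of members called ranged from 5 to 7 in Stiff+mito against Stiff, 5 to 6 in Stiff against Soft, and 6 to 7 in Soft-TW against Soft, in Stiff-TW against Soft-TW and in the interaction of TW and matrix, and did not change in the other 6 comparisons. The Soft count of Fos, 43 to 70 per library, limits its folds against Soft: without 1 library they ran from 5.44 to 5.82 for mito and 2.71 to 3.10 for TW. Library totals as the scale shifted the median of all genes by -0.055 to 0.048 on the log2 scale. Replicate numbers are shared between groups, but same-numbered libraries did not deviate together (r from -0.13 to 0.20, median 0.0055, over 45 pairs), and 4 of 18 libraries correlated best with their own number. With the replicate number as a block, 3354 genes were called in Soft+mito against Soft in place of 3274, 4193 in place of 4099 in Stiff+mito against Stiff, and 0 calls of the members changed. DESeq2 called 2308 and 3094 genes in these comparisons.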

Other observations

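Fosl2 counts were split by the authors' table between a curated and a predicted RefSeq transcript, and the predicted one held a larger part with TW. It took 36.9% to 39.4% of Fosl2 counts in Stiff-TW and 29.9% to 34.7% in Soft-TW, against 19.4% to 24.5% in Stiff and 25.6% to 26.8% in Soft. With mito it was 24.3% to 30.4% on the stiff matrix and 26.0% to 32.3% on the soft one, which overlap Soft-TW. The Stiff-TW libraries lay above all others. The 2 Jund transcripts were given equal counts in every library, so the table holds no information on their balance. Fos, Fosl1, Jun and Junb each had 1 transcript.

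With the 6 group means in place of the 18 libraries, the 3 nearest genes shared 2 names with the lists above for Fos, Junb and Jund, 1 for Fosb and Jun, and 0 for Fosl1 and Fosl2, so the neighbours named for Fosl1 and Fosl2 depend on the choice.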
